A study of Mus musculus with 2 samples.

Results

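Paraoxonases and epoxide hydrolases are hydrolytic enzymes that clear lactones, organophosphates and epoxides, and the mouse liver makes members of both families. The genes described here are Pon1, Pon2 and Pon3, which encode the paraoxonases, and Ephx1 and Ephx2, which encode the microsomal and the soluble epoxide hydrolase. They were taken from a list of gene names, with every probe set that the platform annotation assigns to that gene alone, which gave 8 probe sets for 5 genes of 45101 probe sets and 18193 genes on the array. Pon2 had 4 probe sets and each of the other members had 1. The genes were put on the list with the difference between these genotypes already known, so their values are given as a description.

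The data are 2 single-colour Affymetrix arrays of whole mouse liver at E14.5, a stage when hepatoblasts begin to take their fates, 1 for each genotype. One liver sample was wild type, and the other was Prox1 f/f;Foxa3Cre. In that genotype Cre driven by Foxa3, a gene of gut and liver endoderm, recombines the floxed alleles of Prox1, a homeodomain transcription factor of liver progenitors. Both samples carry the strain label NMRI/C57Bl6, the labels name no agent, and the number of embryos behind each sample is not given in the sources used. The comparison asks how liver gene expression differs when Prox1 is deleted in the endodermal lineage; with 1 array per genotype there is no replicate, no error between animals and no test, and each difference is between these 2 samples. The samples also differ in sex-linked genes, so sex and genotype cannot be told apart.

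Paraoxonases hydrolyse lactones, and PON1 also acts on organophosphates such as paraoxon, the compound that named the family. PON1 and PON3 are made mainly by hepatocytes and circulate on high-density lipoprotein (HDL), whereas PON2 stays inside cells and is expressed in many tissues. Epoxide hydrolases add water to epoxides, many of which are formed by cytochromes P450: the microsomal enzyme EPHX1 sits in the endoplasmic reticulum and acts on xenobiotic epoxides, and the soluble enzyme EPHX2 turns epoxides of fatty acids, such as the epoxyeicosatrienoic acids, into diols.

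The paraoxonase genes lie side by side on mouse chromosome 6 in the order Pon1, Pon3, Pon2, and the windows of 250 bases before their annotated starts are shown because these neighbouring relatives differed in how far their signals lay apart between the genotypes. The sequences are from RefSeq on the assembly GRCm38.p6, all on the minus strand, at chr6:5193947-5194196 for Pon1, chr6:5256234-5256483 for Pon3 and chr6:5298341-5298590 for Pon2. Capitals mark matches to the searched motifs.
Pon1: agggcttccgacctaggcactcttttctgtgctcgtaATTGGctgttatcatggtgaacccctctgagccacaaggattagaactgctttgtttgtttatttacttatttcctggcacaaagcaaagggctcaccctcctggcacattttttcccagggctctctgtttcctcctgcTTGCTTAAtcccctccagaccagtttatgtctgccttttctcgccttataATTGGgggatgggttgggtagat
Pon3: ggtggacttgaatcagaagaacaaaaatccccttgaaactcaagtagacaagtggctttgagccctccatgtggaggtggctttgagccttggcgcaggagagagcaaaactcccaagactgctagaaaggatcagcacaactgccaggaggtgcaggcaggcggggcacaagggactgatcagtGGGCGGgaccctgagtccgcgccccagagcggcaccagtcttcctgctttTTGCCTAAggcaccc
Pon2: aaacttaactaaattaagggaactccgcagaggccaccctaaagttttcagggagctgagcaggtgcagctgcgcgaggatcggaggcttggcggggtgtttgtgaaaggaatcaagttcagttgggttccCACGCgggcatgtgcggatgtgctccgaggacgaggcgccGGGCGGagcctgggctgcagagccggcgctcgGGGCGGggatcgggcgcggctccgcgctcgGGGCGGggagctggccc
The Pon2 window was the richest in G and C, at 65.6% with 24 CpG dinucleotides, against 56.8% and 6 for Pon3 and 47.6% and 3 for Pon1. Over 32817 windows of this length the median was 52.4% with 6 CpG dinucleotides.

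The motifs were searched on both strands, and no matches overlapped in these windows. The GC box GGGCGG, the letters bound by Sp1-type factors, was found 3 times in Pon2, once in Pon3 and not in Pon1, and is held by 32.7% of all windows. The C/EBP core TTGCNNAA, held by 9.57% of all windows, was found as TTGCTTAA in Pon1 at position -73 from the start and as TTGCCTAA in Pon3 at position -15, and was not found in Pon2. The CCAAT box (CCAAT, 33.8% of windows) occurred in Pon1 only, at positions -213 and -23 on the opposite strand. The xenobiotic response element core GCGTG (28.1% of windows) occurred in Pon2 only, on the opposite strand. The letters TATAAA (12.4%), TGACNNNGC (10.2%), CAAAGTCCA (0.384%), the direct repeat of AGGTCA with 1 base between the copies (0.0335%) and GTTAAT followed after 1 base by ATTAAC (0.00914%) had no match in these paraoxonase windows. They stand for the TATA box, the antioxidant response element core, and the HNF4, nuclear receptor and HNF1 types of site. The Ephx1 window, at chr1:181017570-181017819 on the minus strand, held TATAAA at position -214 and CCAAT at position -108, and no window was analysed for Ephx2. These matches describe letters in the windows and not sites in use.

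Among the members, Pon1 differed most between the genotypes, Pon3 was lower in the knockout by less, and Ephx2 was higher by less than 2-fold. Pon2 and Ephx1 lay close to 0, and the direction of Pon2 depends on the probe set and that of Ephx1 is not firm under another scaling. The values are MAS5 signals, a brightness per probe set on a linear scale, and log2 differences are taken as knockout minus wild type. Signals below a floor of 112.6, the higher of the 2 array medians, were raised to it, because dim MAS5 signals scatter widely. Where only 1 array lies above the floor the size of a difference is a lower limit, called a bound here and printed with "at least". Of the 5 member genes, all were above the floor on at least 1 array, 1 was at least 2-fold lower and 0 were at least 2-fold higher. Across all 11433 genes measured on at least 1 array, 2.13% were at least 2-fold lower and 3.27% at least 2-fold higher; the members were chosen on this same contrast, so nothing is read from that comparison.

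**Figure D1:**
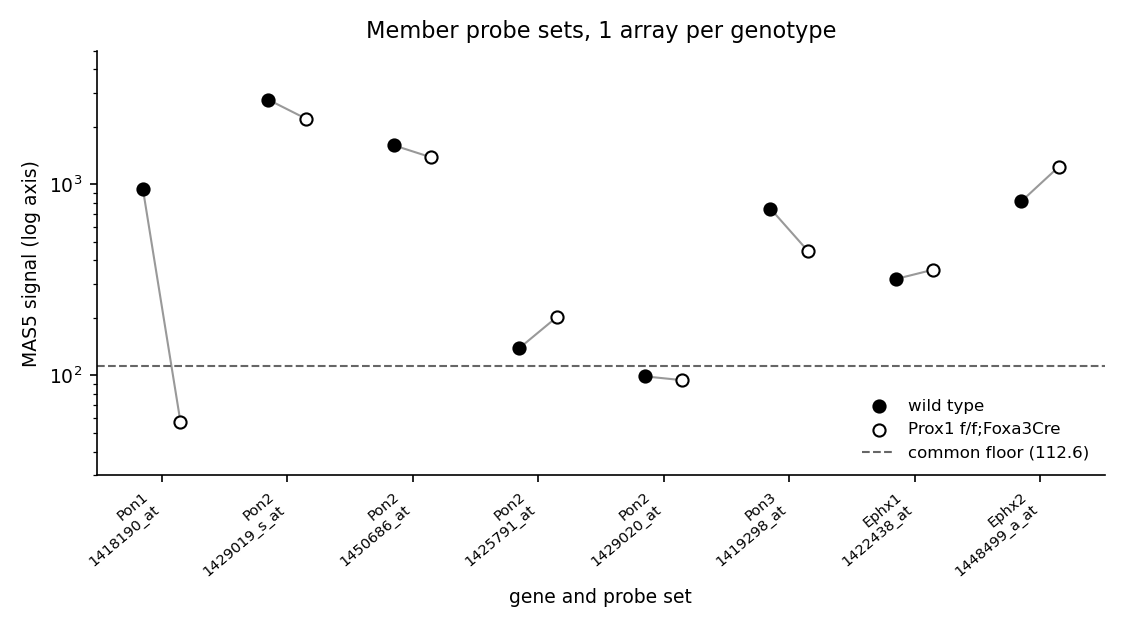
Signal (log axis) of each of the 8 member probe sets on the wild-type array (filled) and the Prox1 f/f;Foxa3Cre array (open), 1 array per genotype, with the common floor of 112.6 dashed. Pon1 goes from 950.4 to 57.1, below the floor, while the dimmest Pon2 probe set lies below the floor on both arrays.

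Pon1, the HDL-bound paraoxonase of plasma, had a wild-type signal of 950.4 and a knockout signal of 57.1. The wild-type signal was well above the floor and the knockout signal was below it, so Pon1 was at least 8.44-fold lower, a log2 bound of -3.08. The ratio of the deposited signals themselves was 16.65-fold, a value that rests on a knockout signal in the range where MAS5 readings are least precise. Counting bounds as they stand, 10 of the 11433 measured genes, Pon1 included, had a difference or bound as low as this or lower. Pon1 has a single probe set on the array, so no second probe set bears on the value. In whole liver, fewer cells of a type and less RNA per cell cannot be told apart.

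Pon3, the other paraoxonase found on HDL, had a wild-type signal of 747.5 and a knockout signal of 448.0. It was measured on both arrays and was 1.67-fold lower, a log2 difference of -0.74. The Pon3 difference thus fell short of 2-fold and was 2.34 on the log2 scale closer to 0 than the Pon1 bound. Among the 4388 genes of like brightness, with a mean signal of 250 to 1000, the middle 95% of differences ran from -1.01 to 1.12, so Pon3 lay inside that range, with 4.1% of those genes as low or lower. This range describes how far genes of that brightness lie apart on the arrays and includes genes that differ between the genotypes, so it is not an error of measurement.

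Pon2, the intracellular paraoxonase, was read by 4 probe sets that did not all point one way. The brightest, whose identifier ends in _s_at and whose probes can match more than 1 transcript, gave 2771 (wild type) and 2206 (knockout), a log2 difference of -0.33. The next read 1600 and 1383, a log2 difference of -0.21. Both bright probe sets were thus slightly lower in the knockout, by 1.26-fold and 1.16-fold. A dim probe set read 139.0 and 202.4, a log2 difference of 0.54, and so was higher. The dimmest read 99.0 and 94.5, below the floor on both arrays, and has no difference to give.

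The Pon2 probe sets measured on both arrays spanned 0.87 on the log2 scale. Of 1158 genes with exactly 3 such probe sets, the median span was 0.37 and 9.3% spanned as much as Pon2 or more. Over the 4593 genes with at least 2 such probe sets, 47.5% had probe sets on both sides of 0. The Pon2 difference of -0.33 on its brightest probe set was smaller than the span of its own probe sets, so its direction rests on the choice of probe set. Among the 3392 genes with a mean signal of 1000 to 5000 the middle 95% of differences ran from -0.70 to 0.75, and Pon2 lay inside it.

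Ephx1, the microsomal epoxide hydrolase, gave signals of 319.6 (wild type) and 357.9 (knockout). They were nearly equal, with the knockout 1.12-fold higher and a log2 difference of 0.16. The direction is not firm: with the arrays scaled to the same median signal the Ephx1 difference was 0.01. That scaling moves the median difference over all measured genes from 0.03 to -0.12. It also turns the split of genes 2-fold apart from 244 lower and 374 higher to 318 lower and 272 higher.

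Ephx2, the soluble epoxide hydrolase, gave signals of 814.6 (wild type) and 1238 (knockout). The knockout was 1.52-fold higher, for a log2 difference of 0.60, and Ephx2 was the farthest above 0 of the members. Among the 3392 genes with a mean signal of 1000 to 5000, 96.0% were as low as Ephx2 or lower, and the value lay inside their middle 95%. The mean signal of Ephx2 lies near the lower edge of that range, and the rank depends on it. Over all measured genes 90.6% were as low or lower, and the middle 95% of the dimmer genes, at 250 to 1000, reached 1.12. The Ephx2 difference was 0.44 above that of Ephx1 and 1.34 above that of Pon3. Its single probe set ends in _a_at, a suffix for probes shared by transcripts of 1 gene.

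**Figure D2:**
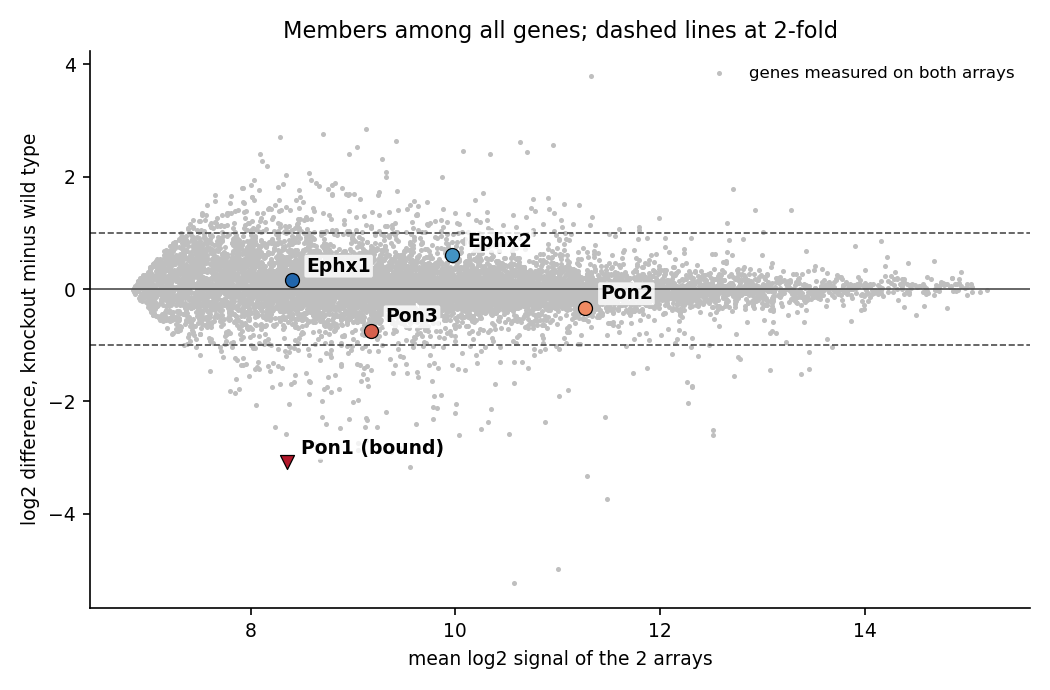
Log2 difference (knockout minus wild type) against the mean log2 signal for the 10216 genes measured on both arrays (grey), with the members coloured and dashed lines at 2-fold. Pon1, a bound at -3.08, lies in the low tail, where Ahsg (-3.73) is lower still, and Pon3, Pon2, Ephx1 and Ephx2 lie between the dashed lines.

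For each member measured on both arrays, the genes nearest to it in log2 difference were found. Likeness here is the smallest gap in log2 difference over only 2 arrays, and all gaps were at most 1.80e-03. For Pon3 they were Notum (202.6 and 121.4), G0s2 (1103 and 660.5) and Tcf7l1 (584.3 and 350.6), with wild-type signals first. For Pon2 they were Cenpf, Samhd1 and Hint2, for Ephx1 1700001G17Rik, Ing2 and Rnf215, and for Ephx2 Ascc2, Pgghg and Dmd. With 1 array per genotype many genes share nearly any given difference.

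The genes around the paraoxonases did not read lower as a group. The 5 nearest protein-coding genes with a measured probe set were taken on each side. Of these 10, 0 were at least 2-fold lower (2.13% over all measured genes) and 2 at least 2-fold higher (3.27%). Above 0 were 7, against 6160 of 11433 measured genes, and the median log2 difference was 0.17. The nearest measured gene beside Pon1, Ppp1r9a (neurabin, an actin-binding protein), read 681.7 and 759.1, a difference of 0.16, with other probe sets at -0.04 and 0.24. The nearest beside Pon2, Asb4, which encodes an ankyrin repeat protein, read 307.2 and 638.7 and was 2.08-fold higher, and its other probe set was 2.47-fold higher. Col1a2, a fibrillar collagen chain of mesenchyme, went from 1271 to 3609, 2.84-fold higher. On their brightest probe sets, Casd1 (0.12), Sgce (0.27), Pdk4 (0.19) and Sem1 (0.36) lay above 0 on the log2 scale. Slc25a13 (-0.28), Sdhaf3 (-0.28) and Bet1 (-0.36) lay below it by about as much as Pon2. Second probe sets of Sgce (-0.08) and Sem1 (-0.05) lay just below 0. Pon1 and Pon3 were lower than each of these neighbours.

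**Figure D3:**
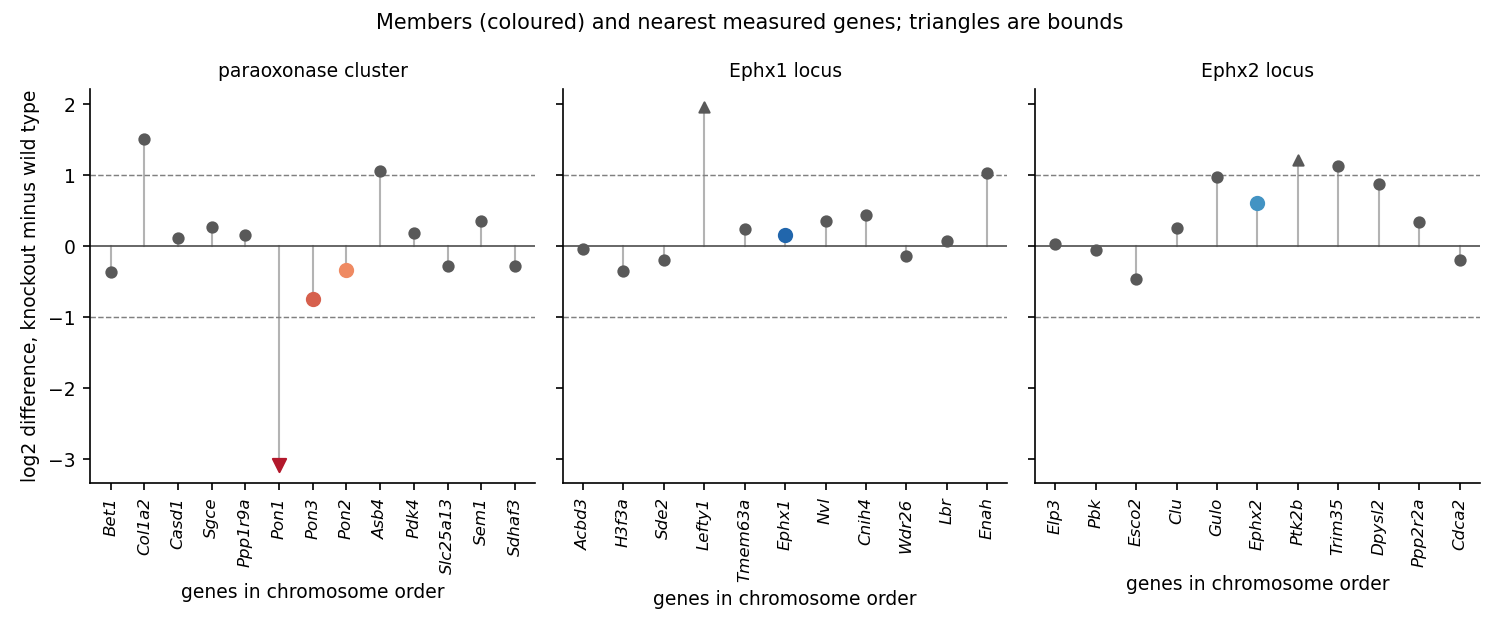
Log2 difference (knockout minus wild type) of the members (coloured) and of the 5 nearest measured protein-coding genes on each side, in chromosome order without scale; triangles are bounds and dashed lines mark 2-fold. Pon1 (a bound of -3.08) and Pon3 (-0.74) lie below each of their neighbours, Pon2 (-0.33) lies among them, and Ephx2 lies within a run of genes above 0.

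Around Ephx2, on chromosome 14, the nearest genes were higher in the knockout, several of them by more than Ephx2. On one side Gulo, which encodes the enzyme of the last step of vitamin C synthesis, read 1593 and 3139, 1.97-fold higher. On the other side the tyrosine kinase gene Ptk2b read 103.3 and 261.0, at least 2.32-fold higher, with a bound of 1.47-fold on its other probe set. These are the nearest measured genes on either side. Trim35 followed, at 956.6 and 2100, 2.20-fold higher, with 2.11-fold and a bound of 1.73-fold on its other probe sets, and then Dpysl2 at 1520 and 2807, 1.85-fold higher. The run ended within the window: Ppp2r2a had a difference of 0.34 (0.65 and 0.15 on its other probe sets) and Cdca2 of -0.20 on that side, and on the Gulo side Clu had 0.26, Esco2 -0.47, Pbk -0.05 and Elp3 0.03. Of the 10 neighbours 2 were at least 2-fold higher (3.27% over all measured genes), with a median of 0.30. Above 0 were 7, the same count as around the paraoxonases, against 6160 of 11433 measured genes.

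Around Ephx1, on chromosome 1, the neighbours lay on both sides of 0. The nearest measured genes, Tmem63a (290.3 and 341.7) and Nvl (415.7 and 533.4), had log2 differences of 0.24 and 0.36, close to that of Ephx1. Of the 10 neighbours 2 were at least 2-fold higher and 0 lower (3.27% and 2.13% over all measured genes), with a median of 0.16. Those 2 were Lefty1, an antagonist of Nodal signalling, at 17.2 and 438.3 and so at least 3.89-fold higher, and Enah, an actin regulator, at 311.0 and 636.0, 2.04-fold higher. Cnih4 (0.44) and Lbr (0.07) also lay above 0, and Acbd3 (-0.04), Wdr26 (-0.14), Sde2 (-0.20) and H3f3a (-0.35) below it. These are the brightest probe sets, and others disagreed in sign. Sde2 had 0.09, 1.77 and a bound of 0.42, and Acbd3 had -0.52, 0.16 and 0.49. Nvl had -0.05 and Cnih4 -0.32, while the other measured probe sets of Wdr26 and Enah kept their sign. To 2 decimals the Ephx1 difference was the same as the median of its neighbours on their brightest probe sets, a median that rests on that choice.

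Genes of HDL and other lipoproteins, on which PON1 and PON3 travel, had differences in both directions, with more of them below 0 than above. The list also holds the cell-surface proteins Abca1, Abcg1 and Scarb1, which are not part of the particle. Of 23 listed HDL and lipoprotein genes 18 were measured. Of these 4 lay 2-fold or more lower and 2 lay 2-fold or more higher (2.13% and 3.27% over all measured genes). In all 14 were below 0, with a median log2 difference of -0.59 against 0.03 over all measured genes, of which 5273 of 11433 were below 0. The hepatocyte and hepatoblast markers, which share Apoa1 and Apob with this list, had 11 of 13 below 0 and a median of -0.89, and their part in these values was not tested. Apom, which binds sphingosine-1-phosphate on HDL, went from 14145 to 5242, 2.70-fold lower, with 2.54-fold on its other probe set. Lcat, the enzyme that esterifies HDL cholesterol, went from 1164 to 694.0, 1.68-fold lower, a fold close to that of Pon3. Apoa1, the main structural protein of HDL and the carrier on which PON1 is active, went from 32222 to 25348, 1.27-fold lower, near the top of the signal scale, where differences can be compressed, and Apoa2 was 1.23-fold lower. Apoc2 (5.70-fold lower) and Saa4 (5.45-fold lower) stood against Apoa4 (at least 12.57-fold higher) and Apoc3 (at least 4.38-fold higher). Scarb1, the HDL receptor, differed by -0.13, with other probe sets at -0.32 and 0.11, and clusterin (Clu), a further HDL protein and also a neighbour of Ephx2, by 0.26.

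Other esterases of the liver included genes that, like Pon1, dropped below the floor. Of 21 listed esterases and lactonases 10 were measured, with a median of -0.54. Of the 10, 3 were lower by 2-fold or more and 0 higher (2.13% and 3.27% over all measured genes). The carboxylesterase Ces1d read 1154 and 33.6, at least 10.25-fold lower. Ces2a read 656.6 and 93.1, at least 5.83-fold lower, and the arylacetamide deacetylase Aadac went from 6218 to 1282, 4.85-fold lower. Bche, the plasma butyrylcholinesterase, which like PON1 meets organophosphates in blood, was 1.93-fold lower.

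Among other epoxide hydrolases, Ephx3 and Ephx4 were not measured above the floor and Lta4h was. Ephx3 read 73.2 and 29.9 and Ephx4 read 4.58 and 25.4, below the floor on both arrays. Lta4h, which hydrolyses the epoxide leukotriene A4, read 2728 and 3578, 1.31-fold higher. Ephx2 was higher too, while the direction of Ephx1 is not firm. Of 23 listed relatives, these epoxide hydrolases and alpha/beta hydrolases among them, 20 were measured, with a median of -0.07. By 2-fold or more 2 were lower (Abhd14b, 2.49-fold, and Abhd3, 2.22-fold) and 0 higher, against 2.13% and 3.27% over all measured genes.

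The enzymes that form epoxides or conjugate them included genes with differences of over 2-fold in each direction. Ephx1 and Ephx2 lay within 2-fold, as did 12 of the 19 glutathione transferases measured. Of 38 listed genes of cytochromes P450 and their reductase, 5 were measured. Of these 2 were at least 2-fold lower and 3 at least 2-fold higher (2.13% and 3.27% over all measured genes). The lower ones were Cyp3a11 (1068 and 32.9, at least 9.49-fold) and the epoxygenase Cyp2c23 (1371 and 205.5, 6.67-fold). Among the higher ones were Cyp3a13 (2.64-fold) and Cyp2s1 (at least 2.61-fold). Of 22 listed glutathione transferases, which conjugate epoxides that are not hydrolysed, 19 were measured, with a median of -0.00. Of the 19, 3 were lower and 4 higher by 2-fold or more (2.13% and 3.27% over all measured genes). Gstm2 was 5.27-fold and Gstm3 3.02-fold higher, and Gstm7 was 3.23-fold and Gsto1 2.82-fold lower. EPHX2 substrates derive from arachidonic acid. Of 16 listed genes of its release and of eicosanoid synthesis, with Lta4h again among them, 9 were measured, with a median of 0.39. Above 0 were 8, against 6160 of 11433 measured genes. The 8 include Pla2g6, at 0.01, and Alox5, above the floor in the knockout only, a bound that had to be above 0. At least 2-fold lower were 0 and higher 1 (2.13% and 3.27% over all measured genes). Alox5ap, a gene of leukocytes, was 2.02-fold higher, under 2-fold with the arrays scaled to the same median, beside granulocyte markers with a median of 1.02, whose part in it was not tested.

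**Figure D4:**
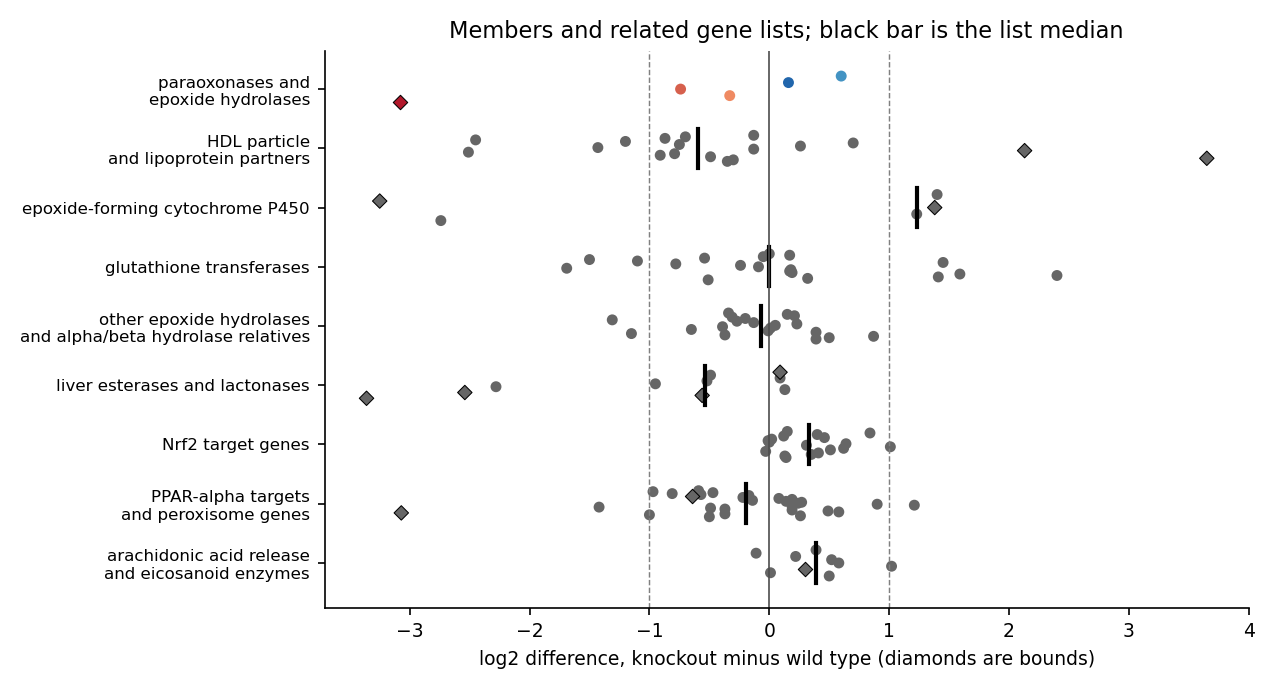
Log2 difference (knockout minus wild type) of the members (top, coloured) and of each measured gene of 8 related lists, with diamonds for bounds, a black bar at each list's median and dashed lines at 2-fold. The HDL and esterase lists have medians of -0.59 and -0.54, and the Nrf2 target list 0.33.

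Known regulators of these genes differed little or moderately. Ephx2 and peroxisomal genes are targets of the nuclear receptor PPAR-alpha, and Ppara read 588.9 and 417.5, 1.41-fold lower, with its other probe sets also lower; Ephx2 was higher. Of 33 listed PPAR-alpha targets and peroxisome genes 28 were measured, with a median of -0.20. Of the 28, 3 were 2-fold or more lower and 1 was 2-fold or more higher (2.13% and 3.27% over all measured genes). Acaa1b, a peroxisomal thiolase, was at least 8.37-fold lower, and Vnn1 was 2.31-fold higher. Ephx1 is a target of the oxidant sensor Nrf2, whose gene Nfe2l2 read 2794 and 3073, 1.10-fold higher. Of 22 listed Nrf2 pathway genes 18 were measured, with a median of 0.33 against 0.03 over all measured genes. Above 0 were 16, against 6160 of 11433 measured genes. The 16 include Tkt (0.00) and Fth1 (0.02), and the sign of differences this small rests on the scaling. At least 2-fold lower were 0 and at least 2-fold higher 1 (2.13% and 3.27% over all measured genes). That 1 was Srxn1, at 2.01-fold, under 2-fold with the arrays rescaled.

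Transcription factors of the hepatocyte and of xenobiotic sensing were read as well. Hnf4a was 1.46-fold lower on its brightest probe set, with log2 differences of -0.85, -0.40 and -0.04 on its others. Cebpa, which encodes a factor that binds C/EBP sites, was 2.03-fold lower, from 1174 to 578.2. Other genes of the C/EBP family were higher, with log2 differences of 0.819 for Cebpb, 0.763 for Cebpd and 0.315 for Cebpg. The pregnane X receptor gene Nr1i2 was 1.60-fold lower, and Nr1i3, the constitutive androstane receptor gene, was below the floor on both arrays. Ahr, Srebf2 and Sp1, which encode regulators reported for Pon1, differed by -0.07, 0.07 and -0.09 on their brightest probe sets. None of these values was tested as a source of the member differences.

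The whole arrays had a common scale, with a 2% trimmed mean of 500.0 on each. Prox1 itself was lower in the knockout, at 340.3 and 221.8 on its brightest probe set, a log2 difference of -0.62. Its other probe sets fell below the floor in the knockout and were at least 1.83-fold and at least 1.56-fold lower. Hepatocyte and hepatoblast markers identify the tissue as liver: 13 of 15 had a probe set and all 13 were measured. Their median was -0.89 and their summed signal 228632 and 173171, and 5 were at least 2-fold lower in the knockout (2.13% over all measured genes). Of the 13, 11 were below 0, with Ahsg the lowest (-3.73). Alb (0.03), Afp (-0.05) and Ttr (-0.05) lay near 0, at bright signals where differences can be compressed, and Dlk1 was higher (0.34). Granulocyte markers had a median of 1.02 (11 of 13 measured, summed signal 36649 and 76583), stellate and mesenchymal markers 0.92 (13 of 13, 16348 and 33725), macrophage markers 0.25 (13 of 14, 18624 and 23571), endothelial markers 0.30 (12 of 12, 6514 and 7541), megakaryocyte markers 0.45 (8 of 9, 15099 and 18467) and erythroid markers -0.07 (8 of 12, 102234 and 96055). Of 10 cholangiocyte markers 5 were measured, all of them above the floor in the knockout only, so that each is a bound and had to be above 0, with summed signals of 317.1 and 2210; Cftr and Onecut1 were below the floor on both arrays. Gut and kidney epithelium markers had 5 of 12 measured, of which Cubn, Vil1 and Amn were at least 2-fold higher (3.27% over all measured genes). The others were lower: Fabp2 went from 727.6 to 444.0, 1.64-fold lower, and Lgals4 from 131.8 to 51.9, at least 1.17-fold lower. Xist read 11466 and 365.7. The Y-linked genes Eif2s3y (0.87 and 1972), Uty (3.19 and 378.1) and Kdm5d (7.73 and 301.6) were below the floor in the wild type only. The samples thus differ in sex or in their mix of sexes, which cannot be told apart from genotype here. These lists lie beside each member value, and their part in the member differences was not tested.

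**Figure D5:**
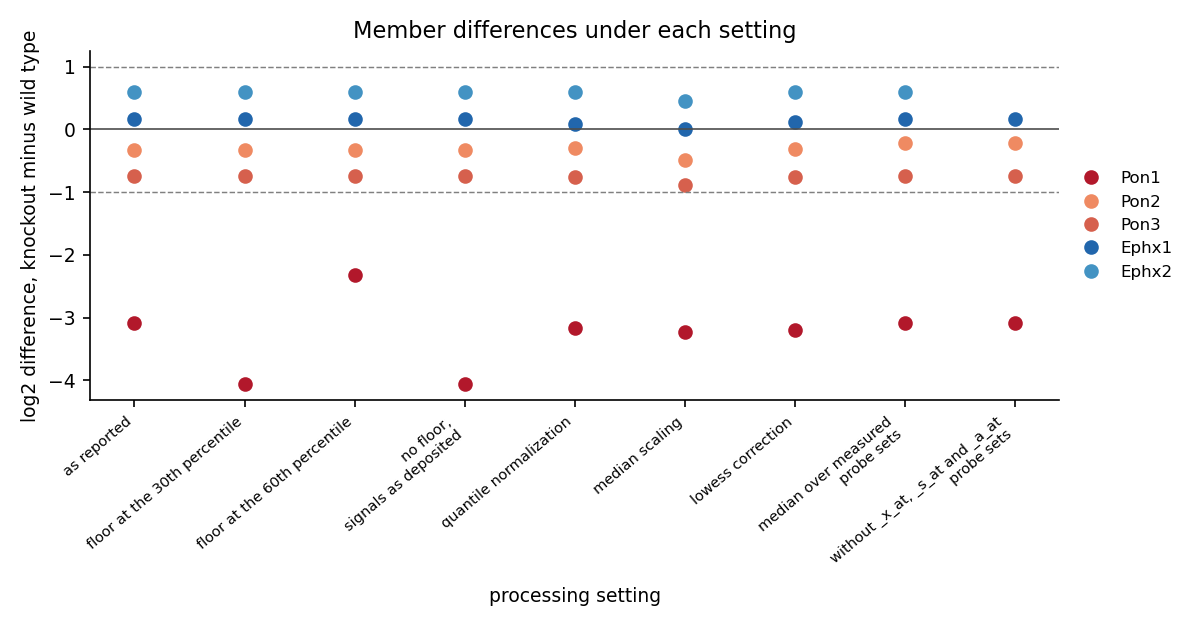
Log2 difference (knockout minus wild type) of each member as reported and under 8 other processing settings, with dashed lines at 2-fold. Pon1 stays between -4.06 and -2.32, the other members stay within 2-fold, and Ephx2 has no point where its only probe set is left out.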

How the data were processed

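The deposited intensity values are MAS5 signals on a linear scale, per the submitters' processing notes, and each array has 1 for every probe set; the sources used here name no MAS5 version. MAS5 summarizes perfect-match and mismatch probes and scales each array to a target, which is why the values were used as deposited. The number of arrays, 1 per genotype, limits the precision. RNA was isolated with Trizol and labelled by the Affymetrix one-cycle assay, per the labels' protocols.

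Of 45101 probe sets, 64 controls were left out. The platform annotation gave 1 symbol for 34945 of the rest, several for 932 and none for 9160; 34741 had their gene identifier in a RefSeq table of GRCm38.p6, which changed 0 symbols. A floor at the 50th percentile was set before log2, and the probe set brightest on average (log2) stands for its gene. Genes were counted by size, at 2-fold, with no test. The members and gene lists were chosen with earlier results of these data known. Text names all members and their neighbours, a set of HDL genes, epoxide hydrolases and regulators whatever their values, and otherwise genes among the 4 largest differences of a list. C/EBP genes other than Cebpa and some liver, gut and kidney markers are named as well. Counting by size was tested on simulated data with no floor and 1 probe set per gene. That run did not exercise the floor, the bounds or the choice of probe set. Alternatives were other floors, scalings, probe set rules and size rules. Protein sequences were not used here. The software was Python 3.11.15 with pandas 2.3.3, numpy 2.4.6, statsmodels 0.14.6 and matplotlib 3.10.9.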

Additional observations from a re-analysis of the deposited data

How the results depend on the processing

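The sign of each member gene was the same under every floor, scaling and probe set rule tried, but this was partly fixed in advance. A common floor cannot reverse a sign, and each member other than Pon2 has 1 probe set. No rule let the dim Pon2 probe set that was higher stand for the gene. For the members other than Pon2 the sign could turn only under the scalings, where Ephx1 fell to 0.01. Ephx2 has no value once probe sets ending in _x_at, _s_at or _a_at are left out. Pon1 ranged from -4.06 to -2.32, Pon3 from -0.89 to -0.74, Pon2 from -0.48 to -0.21, Ephx1 from 0.01 to 0.16 and Ephx2 from 0.45 to 0.60 on the log2 scale. The Pon1 value follows the floor by construction: it was -4.06 with a 30th percentile floor or without one, and -2.32 with a 60th percentile floor. With a 1.5-fold size rule 2 members were lower (Pon1 and Pon3) and 1 was higher (Ephx2). Over all measured genes the lower and higher counts were 427 and 813 for the 30th percentile floor, 1470 and 2362 without a floor, 598 and 1133 at 1.5-fold and 102 and 100 at 3-fold. The dim Pon2 probe set stayed above 0, from 0.09 to 0.54. The median of the gut and kidney epithelium list turned to -0.07 for the 30th percentile floor and -0.02 without a floor, settings that let genes near background into the list. The glutathione transferase median was between -0.16 and 0.17 over the settings. No paired analysis was possible because there is 1 array per genotype, and for the same reason no replicate could be left out. Signal over background limits Pon1 in the knockout, the dim Pon2 probe sets, Ephx3 and Ephx4.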
